A study of Rattus norvegicus with 63 samples.

Results

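The let-7 family is represented on the array by 8 mature miRNAs, chosen by name alone: rno-let-7a, rno-let-7b, rno-let-7c, rno-let-7d, rno-let-7e, rno-let-7f, rno-let-7i and rno-miR-98. They are 8 of the 350 rat miRNAs on the array and 8 of the 162 that were tested because at least 1 array detected them. All livers came from male Wistar Hanover rats, dosed daily by gavage from an age of 8 to 10 weeks, with 3 rats in each of 21 groups and 1 array per rat. The 45 treated rats received 1 of 15 compounds and the 18 control rats received vehicle only, in 6 control sets. The 3 rats of a treated group had been selected from a larger dose group on their histopathology, so they are not a random draw from the animals dosed.

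The 8 nongenotoxic carcinogens (NGC) were acetamide (AA, 3000 mg/kg/d, 14 days), dehydroepiandrosterone (DHEA, 600 mg/kg/d, 14 days), methylcarbamate (Mcarb, 400 mg/kg/d, 14 days), methapyrilene HCl (MPy, 60 mg/kg/d, 7 days), diethylstilbestrol (DES, 10 mg/kg/d, 3 days), ethionine (ETH, 200 mg/kg/d, 14 days), piperonylbutoxide (PBO, 1200 mg/kg/d, 3 days) and phenobarbital sodium (PB, dose not in the labels, 14 days). The 2 genotoxic carcinogens (GC) were C.I Direct Black (CIDB, 146 mg/kg/d, 7 days) and dimethylnitrosamine (DMN, 4 mg/kg/d, 7 days). The 2 non-carcinogens (NC) were cefuroxime (CFX, 250 mg/kg/d, 14 days) and nifedipine (Nif, 3 mg/kg/d, 14 days). Cyproterone acetate (CPA, 100 mg/kg/d, 14 days), Thioacetamid (TAA, 19.2 mg/kg/d, 7 days) and Wy-14643 (Wy, 60 mg/kg/d, 3 days) had no defined class. The labels assigned AA, DHEA, Mcarb, MPy, TAA and Wy to MC set 1, CFX and Nif to MC set 2, DES, ETH and PBO to MC set 5, PB to MC set 6, CIDB and DMN to CO set 3 and CPA to CO set 4. MC stands for the cellulose vehicle of the study's methods and CO for corn oil. By the labels, every MC set was dosed for 14 days, while the study's methods describe the controls as matched in time. If the labels are right, the compound and the shorter dosing time cannot be told apart for MPy, TAA, Wy, DES and PBO. Which is right was not settled here.

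miRNAs of the let-7 family are short RNAs that guide the silencing complex to messenger RNAs through the seed, a run of bases near the 5′ end that pairs with the target. The family is abundant in differentiated adult tissues, liver included, and is known for holding down growth and developmental regulators such as Ras, Myc, Hmga2 and Lin28, while Lin28 in turn blocks let-7 maturation. The members are made from hairpins scattered over several chromosomes, some of them transcribed together. Their mature sequences from RefSeq (GRCr8, listed there as the 5p arms and matched for 8 of 8 members) are shown because they set which members share targets and how few bases separate one probe's target from another's. Capitals mark the seed, bases 2 to 8.
rno-let-7a: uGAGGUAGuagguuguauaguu
rno-let-7b: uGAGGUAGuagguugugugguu
rno-let-7c: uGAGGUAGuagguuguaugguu
rno-let-7d: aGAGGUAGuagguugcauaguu
rno-let-7e: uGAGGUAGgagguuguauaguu
rno-let-7f: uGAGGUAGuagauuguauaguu
rno-let-7i: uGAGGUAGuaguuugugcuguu
rno-miR-98: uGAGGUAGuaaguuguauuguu

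All 8 members carried the same seed. Among the 304 of 350 array names that could be matched to RefSeq, no other guide strand had it. Counted from 1 at the 5′ end and against let-7a, let-7c differed by A19G, let-7e by U9G and let-7f by G12A. let-7b differed by A17G and A19G, let-7d by U1A and U16C, and miR-98 by G11A and A19U. let-7i was the most distant from let-7a, with 4 substitutions, and the widest pair was let-7d and let-7i with 6 of 22 bases different (72.7% identity). let-7b and let-7c differed from each other by 1 base.

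In GRCr8, 3 members lay together on chromosome 17, all inside the span of LOC120097935: let-7a at chr17:16320145-16320166, let-7f at chr17:16320508-16320529 and let-7d at chr17:16322273-16322294, all on the plus strand. let-7c (chr7:118683636-118683657, +) and let-7b (chr7:118684044-118684065, +) were neighbours on chromosome 7, 386 bases apart, in no annotated host gene of the table used here. let-7f (chrX:24460052-24460073, +) and miR-98 (chrX:24460663-24460684, +) lay within the span of Huwe1, a ubiquitin ligase gene. let-7e (chr1:67350243-67350264, +) lay within the span of Spaca6 and let-7i (chr7:60527935-60527956, minus strand) within that of LOC134479799. let-7a had another locus (chr8:50805219-50805240, +) within Mir100hgl, and let-7c another (chr11:29688127-29688148, +) within LOC103693508. The array measures the mature product, so let-7a, let-7c and let-7f each sum 2 loci. Whether a hairpin is exonic or intronic was not analysed here.

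Each member was read by 2 probes of 10 spots each and was called detected on 63 of 63 arrays. All were well above background on 63 arrays except miR-98, on 62. Expression values are log2 of brightness without background subtraction, so a dim member's changes are compressed. A median of 91.8% of the brightness of let-7a and 91% of that of let-7f was left after the scanner software's background subtraction, but 29.9% for let-7e and 21% for miR-98. let-7b, let-7c, let-7d and let-7i kept 81.9%, 81.4%, 73.6% and 54.8%. The levels of different members were therefore not ranked against each other.

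A fault in the deposited records bears on the results and is given first. Over the 71 miRNAs detected on all arrays, 48 of the 63 columns of the authors' value table followed the array filed under the same sample most closely, and 15 followed the array of another sample. The DES and DHEA columns each followed the arrays filed under the other compound, and the columns of MC sets 1, 2 and 5 followed arrays filed under another of these sets. For those 15 columns the correlation with the own array was -0.0504 to 0.6748, against 0.8419 to 0.9643 with the best array. Which record is right could not be settled, so arrays are named below by the sample they were filed under, and values under the table's own assignment are given beside the results. PB, CIDB, DMN, CPA and their control sets were not touched.

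In vehicle livers the members varied little. Over the 18 control rats, let-7f, whose spread within sets was 0.0501 (SD, log2), lay between 10.846 and 11.051 with a median of 10.98. let-7c lay between 9.871 and 10.127 and let-7d between 9.145 and 9.488. The median of the 6 corn oil rats against the 12 MC rats was 9.433 against 9.31 for let-7d, 8.626 against 8.487 for let-7i and 8.08 against 7.957 for let-7e, and 10.9 in both for let-7a. Both CO sets were scanned on the first of 3 scan days, as was only 1 of the 4 MC sets, so vehicle and scan day cannot be told apart in these medians. Within that day, the means of CO set 3, CO set 4 and MC set 6 were 9.407, 9.438 and 9.314 for let-7d. They were 8.659, 8.609 and 8.599 for let-7i and 8.094, 8.065 and 8.028 for let-7e. The vehicles were not tested against each other.

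Between control sets of one vehicle, 1 of 56 comparisons of a member passed the test, a limma contrast with Benjamini-Hochberg adjustment over all 162 miRNAs at 0.05. let-7i measured 8.617, 8.639 and 8.541 in MC set 6 and 8.409, 8.34 and 8.433 in MC set 1, a log2 difference of 0.20 (SE 0.0547, adjusted p = 0.00561). The ranges did not overlap. MC set 6 was scanned on the first day and MC set 1 on later days, and without rat 5 of MC set 1 or with slide or scan day in the fit the call was lost. Under the assignment of the value table the same arrays are MC set 2. Of all 162 miRNAs, 20.4% passed between MC sets 6 and 1, 6.79% between sets 6 and 2, 9.26% between sets 6 and 5 and 0% in each of the other 4 contrasts, and the let-7i difference between control sets was as large as some changes with a compound reported below.

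**Figure D1:**
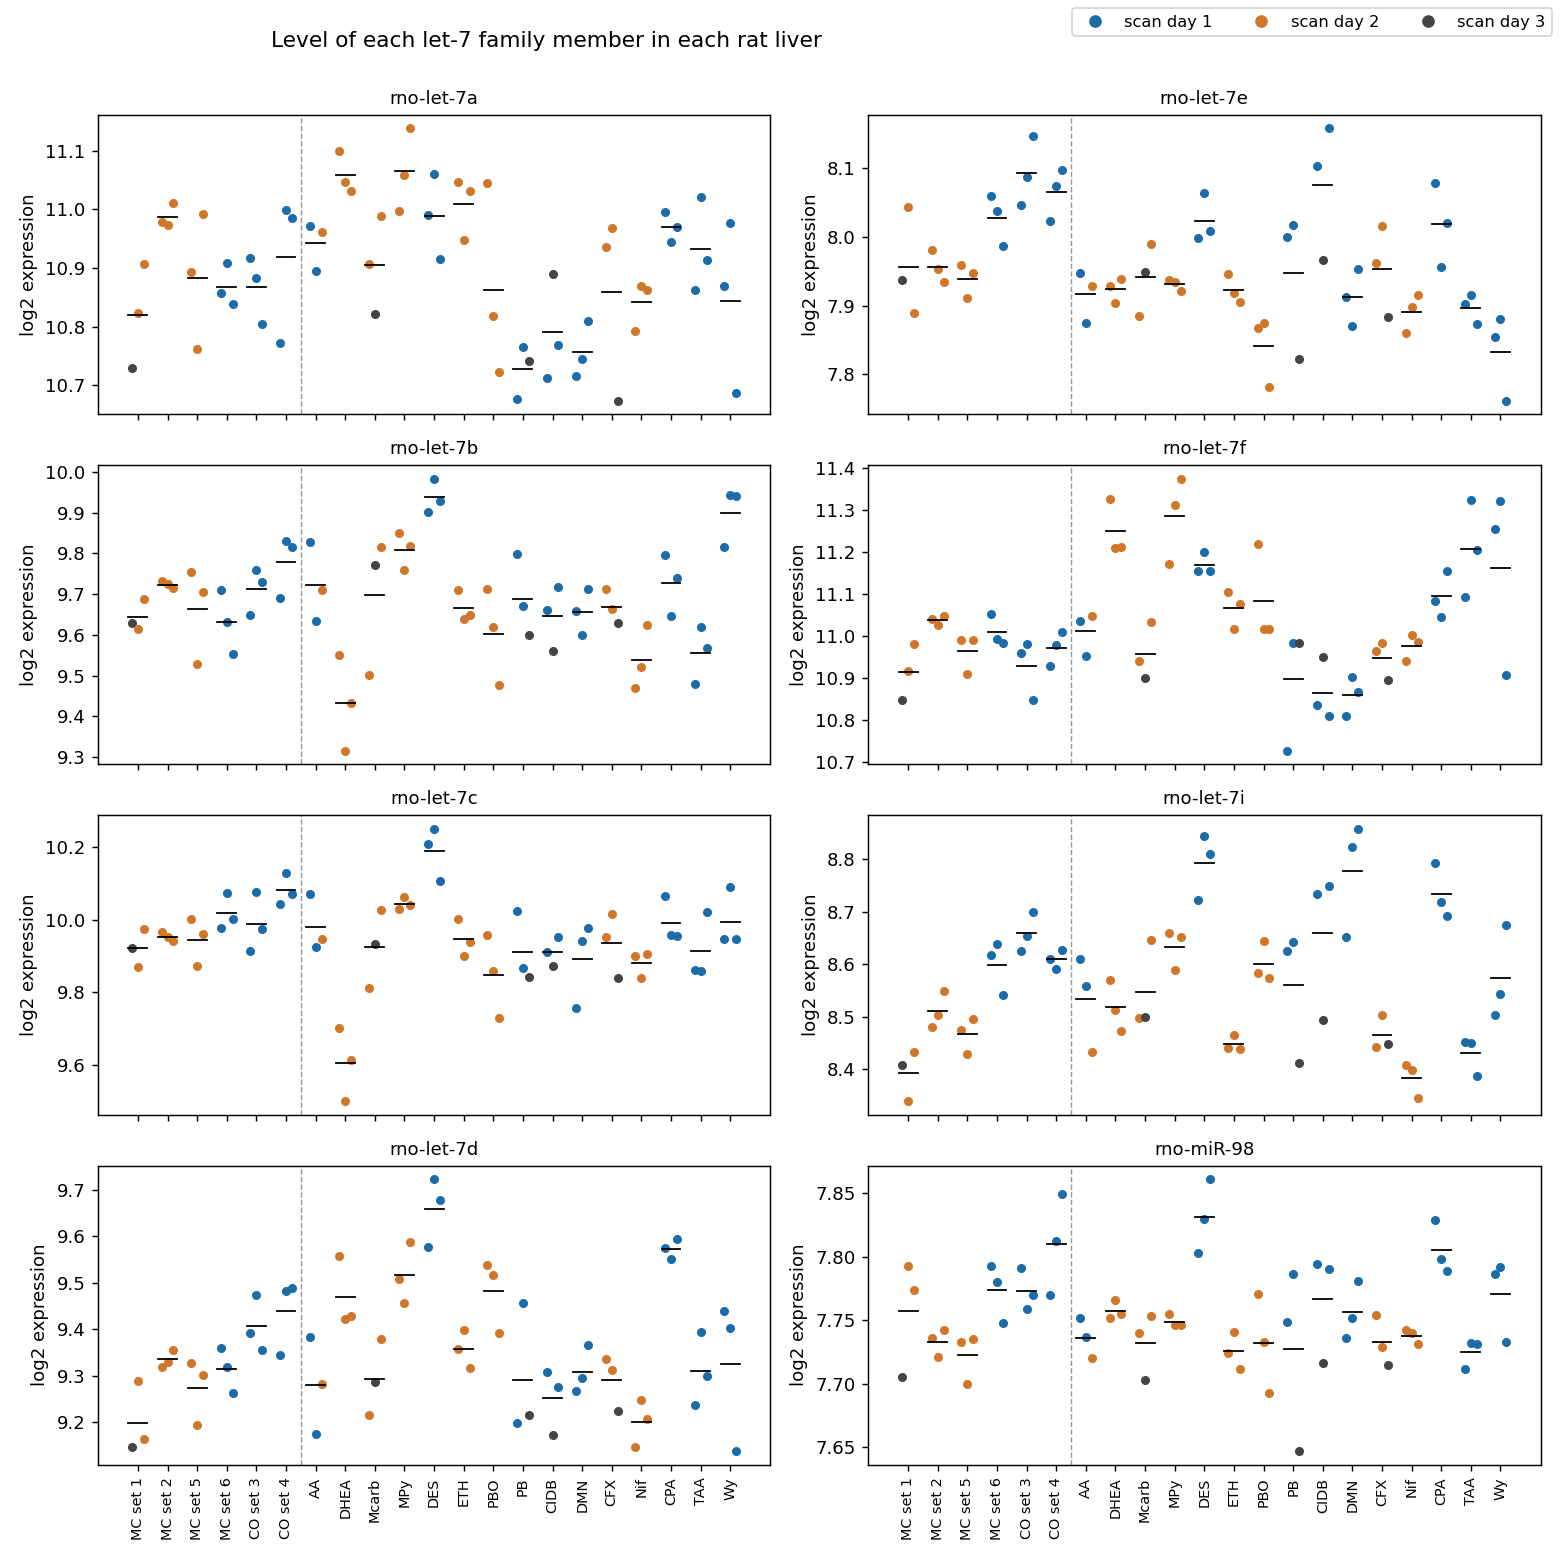
Log2 expression of each member (y axis, without background subtraction) in every rat, by control set (left of the dashed line) and compound (right), with a bar at each group mean and colours for the scan day. let-7b and let-7c are lowest in the arrays filed as DHEA (means 9.433 and 9.606) and highest in those filed as DES (9.938 and 10.187), while let-7a and let-7f are highest in MPy (11.065 and 11.286).

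Each compound was compared with its control set to ask which members changed in the liver. Of the 120 pairs of a member and a compound, 18 rose and 4 fell, against 7.57% higher and 6.71% lower over all 2430 pairs of a tested miRNA and a compound. The changes were small: the median absolute log2 fold change was 0.0847 over the members and 0.0303 over all miRNAs, and no called change exceeded 1.31-fold. The calls lay in 7 compounds, with 6 members called in DES, 5 in DHEA, 4 each in MPy and Wy and 1 each in PBO, DMN and TAA. Of all tested miRNAs, 37.0% were called in DES, 18.5% in DHEA, 18.5% in MPy, 25.9% in Wy, 8.64% in PBO, 23.5% in DMN and 21.6% in TAA. No member was called in AA, Mcarb, ETH, PB, CIDB, CFX, Nif or CPA, where 13.6%, 1.85%, 16.0%, 3.09%, 20.4%, 0%, 0% and 5.56% of all miRNAs were. Both probes of a member moved the same way in 22 of 22 called pairs and in 101 of 120 pairs.

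With arrays assigned as in the value table, 12 pairs rose and 3 fell, and of the 22 calls 9 were kept, 9 lost and 4 turned in direction. The rises were 6 in DHEA, 3 in MPy and 1 each in DES, TAA and Wy, and the falls 2 in DES and 1 in DMN. Of all 162 miRNAs, 60 were then called in DHEA, 20 in MPy, 29 in DES, 12 in TAA, 18 in Wy and 38 in DMN. No member was called in AA, Mcarb, ETH, PBO, PB, CIDB, CFX, Nif or CPA, where 4, 1, 25, 25, 5, 33, 0, 0 and 9 of all miRNAs were. Of the 22 calls, 16 lay in the 5 compounds labelled with a shorter dosing time than their controls (40 of the 120 pairs, with 22.3% of all miRNAs called), and 6 in the others (80 pairs, 10.2% of all miRNAs called). Under the assignment of the value table this split was 8 and 7 of 15 calls. In a joint F test over the 15 compounds all 8 members varied, with adjusted p between 7.96e-07 for let-7c and 0.0116 for miR-98, as did 80.9% of all tested miRNAs. With slide as a fixed block, 1 of the 22 calls was kept, let-7d in PBO, and 5 of the 15 compounds shared a slide with a rat of their control set. With slide as a random block 20 were kept. The scaling moved the balance of directions: 30 pairs rose and 1 fell when arrays were scaled to the 75th percentile over detected probes, and 1 rose and 5 fell over all probes, and the median change of the 71 miRNAs detected on all arrays then ran from -0.06 (Nif) to 0.25 (MPy) and from -0.39 (TAA) to 0.27 (Nif).

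**Figure D2:**
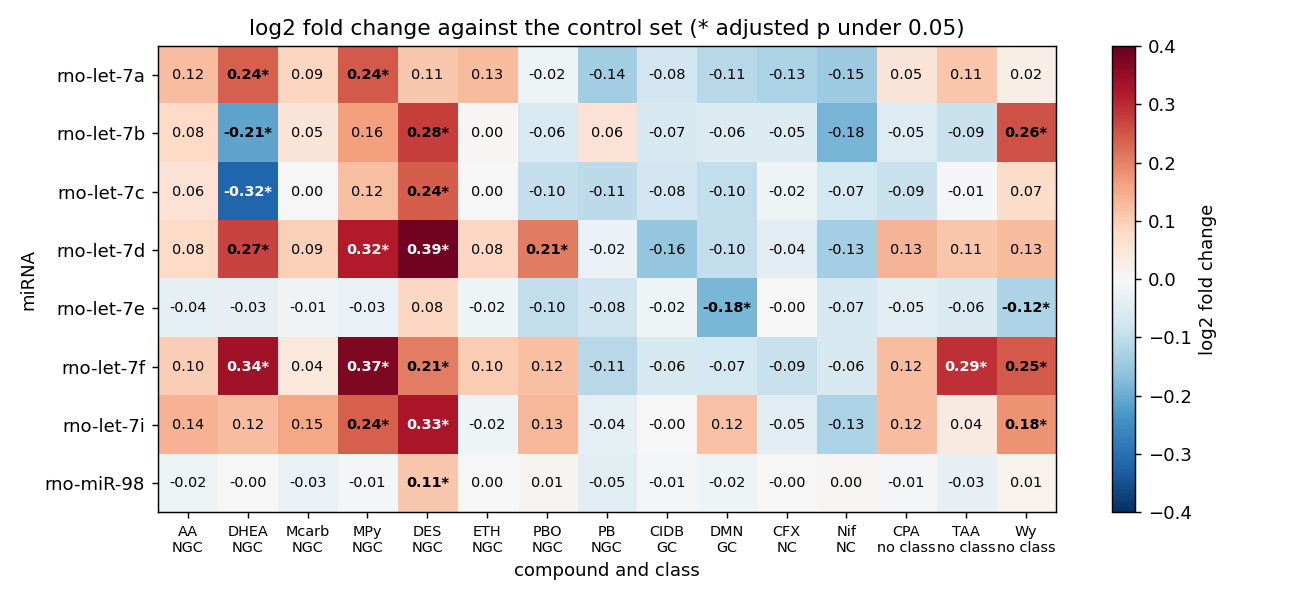
Log2 fold change of each member (rows) in each compound (columns, with class) against its control set, in colour and number, with bold type and an asterisk where the limma adjusted p was under 0.05. The largest value is 0.39 for let-7d in DES and the lowest is -0.32 for let-7c in DHEA. Scaled to the 75th percentile over all probes, let-7a and let-7f in MPy, let-7f in TAA and let-7b and let-7f in Wy were below 0 instead.

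The members encoded on chromosome 17 rose together in MPy. let-7f measured 11.171, 11.313 and 11.375 in the 3 MPy rats and 10.846, 10.916 and 10.98 in MC set 1, a rise of 0.37 on the log2 scale (SE 0.0686, adjusted p = 7.92e-05). let-7d measured 9.508, 9.456 and 9.587 against 9.145, 9.288 and 9.163, a rise of 0.32 on the log2 scale (SE 0.0642, adjusted p = 0.00026). let-7a measured 10.998, 11.058 and 11.138 against 10.73, 10.824 and 10.907, a rise of 0.24 on the log2 scale (SE 0.0706, adjusted p = 0.00859). In none of these did the rats of the compound overlap the controls. let-7i, encoded elsewhere, measured 8.66, 8.588 and 8.652 against 8.409, 8.34 and 8.433 and rose by 0.24 (SE 0.0547, adjusted p = 0.000944). let-7b (0.16) and let-7c (0.12) did not pass, and let-7e (-0.03) and miR-98 (-0.01) lay near 0.

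Against the 2 control rats scanned on the same day as the 3 MPy rats, let-7a, let-7d, let-7f and let-7i were 0.20, 0.29, 0.34 and 0.25 and remained called. Under the assignment of the value table the values were 0.18, 0.24, 0.32 and 0.17, and let-7a was no longer called. Without rat 3 of MPy or rat 4 of MC set 1, let-7a fell short of the test (adjusted p = 0.0633 and 0.0654). Scaled to the 75th percentile over all probes, let-7a was -0.27 and let-7f -0.13, where the median over the 71 miRNAs detected on all arrays was -0.25, so let-7a moved with that median and let-7f lay above it.

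The arrays filed as DHEA parted the family. let-7f measured 11.327, 11.21 and 11.213 on them against 10.846, 10.916 and 10.98 in MC set 1, a rise of 0.34 on the log2 scale (SE 0.0686, adjusted p = 0.000226). let-7d measured 9.558, 9.422 and 9.428 against 9.145, 9.288 and 9.163, a rise of 0.27 on the log2 scale (SE 0.0642, adjusted p = 0.00161). let-7a measured 11.099, 11.046 and 11.032 and rose by 0.24 (SE 0.0706, adjusted p = 0.0107), although its probes differed, at 0.44 and 0.04. These are the 3 members of the chromosome 17 cluster.

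The chromosome 7 neighbours went the other way on the same arrays. let-7c measured 9.702, 9.502 and 9.614 against 9.921, 9.871 and 9.973 in MC set 1 and fell by 0.32 on the log2 scale (SE 0.0611, adjusted p = 0.000116). let-7b measured 9.551, 9.316 and 9.434 against 9.63, 9.615 and 9.687 and fell by 0.21 (SE 0.067, adjusted p = 0.019). In both, every array filed as DHEA lay below every control. let-7i (0.12), let-7e (-0.03) and miR-98 (-0.0001535) did not pass the test. Against the 2 control rats scanned on the same day, let-7i was called (0.13, adjusted p = 0.0494) and let-7a was not (0.19, adjusted p = 0.0589). The calls for let-7b, let-7c, let-7d and let-7f remained. Without rat 2 of DHEA let-7b was -0.15 (adjusted p = 0.196) and without rat 6 of MC set 1 it was -0.19 (adjusted p = 0.0674), and let-7a was lost without rat 1 of DHEA or rat 4 of MC set 1.

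Within each array filed as DHEA, the mean change of let-7b and let-7c minus that of let-7a, let-7d and let-7f was -0.506, -0.622 and -0.506. In the other 42 treated rats this difference ran from -0.312 to 0.284, so the 3 arrays lay outside the range of all others. The 5 members were grouped after their values were seen and the difference was not tested. The 3 arrays shared slide 6 with 2 arrays of MC set 5, and against those the values were 0.30 for let-7f, 0.22 for let-7d, 0.18 for let-7a, -0.31 for let-7c and -0.18 for let-7b, with no test. With slide as a fixed block, let-7a, let-7d and let-7f were 0.22, 0.39 and 0.36, let-7c was -0.22 and let-7b 0.05, none of them called.

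The value table's DES columns followed these 3 arrays. Assigned in that way, with the controls of that assignment, the contrast belongs to DES: let-7b was -0.29 (adjusted p = 0.00131), let-7c -0.35 (adjusted p = 2.17e-05) and let-7f 0.21 (adjusted p = 0.0268), while let-7d (0.14) and let-7a (0.07) were not called. From the deposited records, DHEA and DES cannot be told apart as the source of this pattern.

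**Figure D3:**
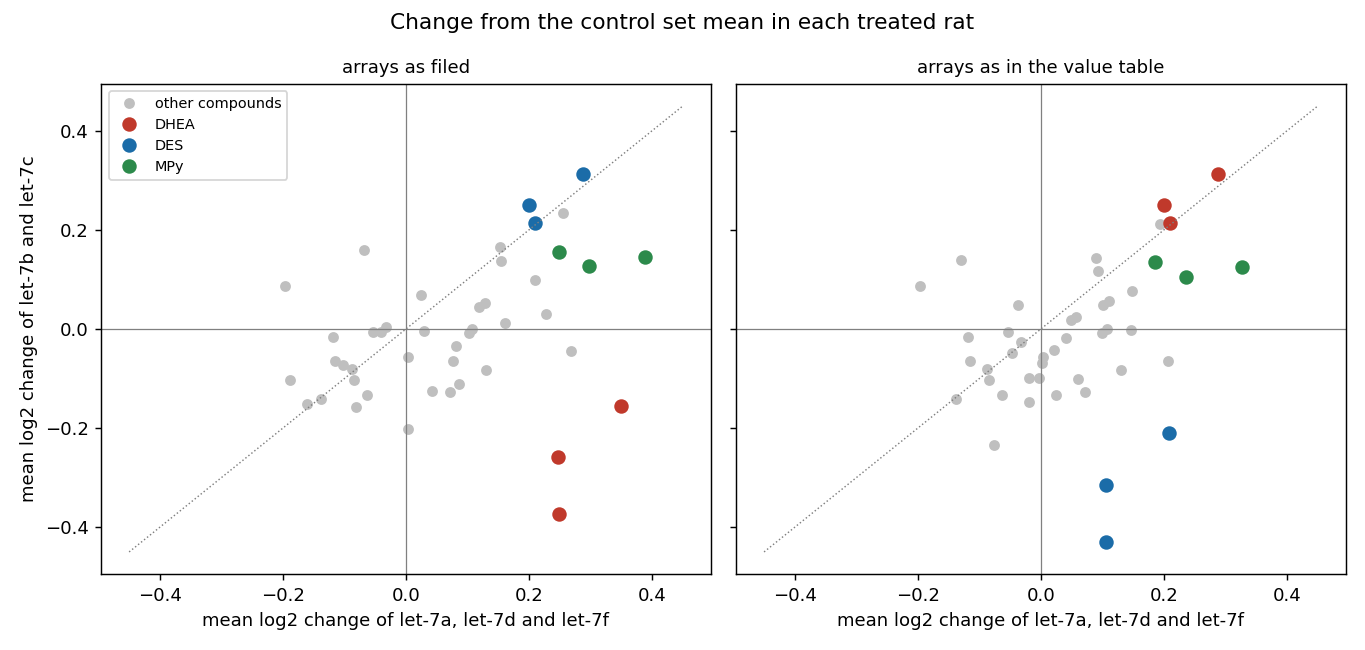
Mean log2 change of let-7b and let-7c (y axis) against that of let-7a, let-7d and let-7f (x axis) in each treated rat, with the dotted line at equal change, for the arrays as filed (left) and under the value table's assignment (right). On the left the 3 arrays filed as DHEA lie at -0.156 to -0.374 on the y axis and 0.247 to 0.35 on the x axis, while on the right the same arrays carry the name DES.

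On the arrays filed as DES all 8 members were above MC set 5 and 6 were called. let-7d measured 9.576, 9.723 and 9.679 against 9.327, 9.193 and 9.302, a rise of 0.39 on the log2 scale (SE 0.0642, adjusted p = 1.72e-05) and the largest in the family. let-7i measured 8.722, 8.843 and 8.81 against 8.474, 8.43 and 8.495, a rise of 0.33 on the log2 scale (SE 0.0547, adjusted p = 1.72e-05). let-7b measured 9.902, 9.983 and 9.929 against 9.755, 9.529 and 9.704, a rise of 0.28 on the log2 scale (SE 0.067, adjusted p = 0.00165). No array filed as DES overlapped the controls in these 3 members. let-7c rose by 0.24 (adjusted p = 0.00223), let-7f by 0.21 (adjusted p = 0.017) and miR-98 by 0.11 (adjusted p = 0.000667). let-7a (0.11) and let-7e (0.08) did not pass.

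The arrays filed as DES were scanned on the first day and MC set 5 on the second, so no same-day value exists. With scan day as a block let-7d (0.36) and let-7f (0.35) remained called, and let-7b, let-7c, let-7i and miR-98 (0.19, 0.20, 0.14 and 0.07) did not. Assigned as in the value table these arrays are DHEA, and the arrays filed as MC set 5 are MC set 1. The same arrays are then compared, so the same 6 calls follow by construction and are no separate check. The call for let-7f was lost without rat 2 of DES or rat 8 of MC set 5.

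In Wy, a peroxisome proliferator, let-7b measured 9.816, 9.943 and 9.94 against 9.63, 9.615 and 9.687 in MC set 1, a rise of 0.26 on the log2 scale (SE 0.067, adjusted p = 0.00386). let-7f measured 11.255, 11.321 and 10.907 and rose by 0.25 (SE 0.0686, adjusted p = 0.00607), but rat 3 lay within the control range of 10.846 to 10.98. It was the one called change in which the groups overlapped. let-7i rose by 0.18 (SE 0.0547, adjusted p = 0.0122) and let-7e, at 7.854, 7.88 and 7.762 against 7.937, 8.043 and 7.889, fell by 0.12 (SE 0.0425, adjusted p = 0.0228). No control of Wy was scanned on the same day: with scan day as a block let-7f (0.37) and let-7e (-0.21) remained called, let-7b (0.16) did not and let-7i was -0.01. Assigned as in the value table, let-7b alone (0.24, adjusted p = 0.0197) was called. let-7e and let-7i were lost without rat 3 of Wy or rat 5 of MC set 1, and let-7f without rat 2 of Wy. Scaled to the 75th percentile over all probes, let-7b was -0.12 and let-7f -0.23, against a median of -0.31 over the miRNAs detected on all arrays.

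In TAA, let-7f alone was called: it measured 11.093, 11.323 and 11.205 against 10.846, 10.916 and 10.98 and rose by 0.29 (SE 0.0686, adjusted p = 0.00262), also with scan day as a block (0.42) and assigned as in the value table (0.24). With scan day as a block let-7e (-0.15), let-7i (-0.16) and miR-98 (-0.09) were also called, as lower. The 2 probes of let-7f gave 0.29 and 0.295. Scaled to the 75th percentile over all probes let-7f was -0.11, against a median of -0.39 over the miRNAs detected on all arrays. let-7f was thus called higher in 5 compounds (DHEA, MPy, DES, TAA and Wy), more than any other member. DHEA, MPy, TAA and Wy were all compared with the same 3 rats of MC set 1, so the calls of members in them are not independent. Among the 21 groups MC set 1 had the lowest mean of let-7d (9.199) and the second lowest of let-7i. For let-7a and let-7f it ranked 4 from the lowest. In PBO, let-7d alone was called, at 9.537, 9.517 and 9.392 against 9.327, 9.193 and 9.302 in MC set 5, a rise of 0.21 on the log2 scale (SE 0.0642, adjusted p = 0.0274). It was the one change also called with slide as a fixed block (0.235, adjusted p = 0.0303), but it lost its call without rat 1 or 2 of PBO or rat 8 or 9 of MC set 5 and with the arrays of the value table (0.15). In the fit within scan day, let-7i was also called higher in PBO (0.134, adjusted p = 0.0341). There it was called in Mcarb as well (0.185, adjusted p = 0.0424), with 2 treated and 2 control rats.

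let-7e was lower in the genotoxic DMN. It measured 7.913, 7.87 and 7.954 in DMN rats against 8.047, 8.087 and 8.147 in CO set 3, with no overlap, and fell by 0.18 on the log2 scale (SE 0.0425, adjusted p = 0.00116). CO set 3 had the highest let-7e mean of the 21 groups (8.094), and CO set 4 was at 8.065. The DMN mean of 7.912 lay near MC sets 1, 2 and 5 (7.956, 7.956 and 7.94), which had another vehicle and later scan days. let-7i was called higher in DMN only in some settings, such as the fit within scan day (0.118, adjusted p = 0.0385). DMN and CO set 3 were dosed for the same time and scanned on the same day, their records were not touched by the mismatch, and the call held in each of the 6 fits that left out 1 rat. With slide as a fixed block it was -0.13 (adjusted p = 0.371), and the groups lay on different slides. The size of the change differed between settings: scaled to the 75th percentile over all probes it was -0.73 (adjusted p = 0.0014), against a median of -0.28 over the miRNAs detected on all arrays, over detected probes it was -0.38 and not called, with normexp correction -0.285 and called, and in the value table -0.66 and called. The cause was not tested. The other genotoxic carcinogen, CIDB, had 8 of 8 members below its controls, none called, from -0.16 for let-7d to -0.000236 for let-7i. The members' median was -0.065, against -0.059 over the miRNAs detected on all arrays. The direction depended on the scaling. Over detected probes 8 of 8 were above the controls, with let-7a, let-7c and let-7f called (0.36, 0.34 and 0.37). Over all probes 7 of 8 were, none called. The members' medians were then 0.27 and 0.105, against 0.16 and 0.001 over the miRNAs detected on all arrays. In the value table and with slide as a fixed block 4 of 8 were above.

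The non-carcinogens showed no called member. In CFX all 8 members were below MC set 2 (-0.13 to -0.00078). In Nif 7 of 8 were, with let-7b at -0.18 and let-7a at -0.15. MC set 2 is among the mismatched sets. With arrays assigned as in the value table, 6 of 8 members were above the controls in CFX (-0.03 to 0.09) and 3 of 8 in Nif (-0.11 to 0.06). Scaled over all probes 8 of 8 were above in both, none called. The members' medians in CFX and Nif were then 0.2 and 0.19, below the 0.25 and 0.27 over the miRNAs detected on all arrays. Set against each other by class with the compound as the unit, none of the 24 comparisons of a member passed (C, all 10 carcinogens, minus NC, NGC minus GC and NGC minus NC, with 0%, 0% and 0% of all 162 miRNAs called by limma). The smallest adjusted p was 0.204, for let-7d in NGC minus GC: its mean log2 fold change was 0.18 ± 0.141 (SD, 8 compounds) in NGC and -0.13 over the 2 GC, and the difference of 0.30 had an unadjusted p of 0.0126. In NGC minus NC, let-7a, let-7d and let-7i had the lowest unadjusted p of the members (0.0279, 0.0246 and 0.03). Their differences were 0.23, 0.27 and 0.22, each with an adjusted p of 0.532. In C minus NC let-7i had the lowest (0.0281), with a difference of 0.20 and an adjusted p of 0.675. Under the assignment of the value table these differences were -0.0056, 0.07 and 0.05 in NGC minus NC and 0.04 for let-7i in C minus NC. Their unadjusted p ran from 0.495 to 0.944. For let-7d in NGC minus GC the difference was then 0.24 (unadjusted p = 0.0352). Compounds of a class shared control sets, so they were not fully independent.

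The members did not move as one unit. Over the 63 arrays, after each group's mean was taken away, the correlation between members ran from -0.235 for let-7f and let-7i to 0.781 for let-7a and let-7f. Across the 21 group means, let-7b and let-7c had the highest (0.846), followed by let-7a and let-7f (0.782), while let-7c and let-7f were at -0.015 and let-7e and let-7f at -0.34. The 4 pairs that differ by 1 base had a median within-group correlation of 0.589 (0.299 to 0.781) and the 24 pairs that differ by more had 0.40 (-0.235 to 0.662). Across the group means these medians were close, at 0.419 and 0.399. The 4 pairs there ran from -0.002 for let-7a and let-7e to 0.846 for let-7b and let-7c. These values are a description: all points share arrays and a common normalization, both closely correlated pairs are also neighbours in the genome, and binding of 1 member to another's probe was not tested.

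Within each member the order of the 21 groups was nearly continuous. Of the 20 neighbouring groups in the order of means, none were apart without overlap for let-7a, let-7b, let-7d, let-7e, let-7f and let-7i, and 1 was for let-7c and for miR-98. The gap of the dim miR-98 was slight, from 7.742 in the highest Nif rat to 7.746 in the lowest MPy rat. This count was not made for the other tested miRNAs, so nothing particular to the family is read from it. let-7c ran from 9.606 in DHEA, the gap being the one above it, to 10.187 in DES. let-7a was lowest in PB (10.728), let-7f in DMN (10.859) and let-7d in a control set, MC set 1 (9.199). The whole range of group means was 0.581 for let-7c, 0.504 for let-7b, 0.461 for let-7d and 0.109 for miR-98.

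Among miRNAs encoded near let-7 hairpins and the passenger arms, 16 of 90 pairs of a tested miRNA and a compound were called, against 22 of 120 for the members, and 14 of the 16 were miR-99a and miR-125b-5p. The list holds the passenger arms on the array, rno-let-7b*, rno-let-7d*, rno-let-7e* and rno-let-7i*, and miR-99a, miR-99b, miR-100, miR-125a-5p and miR-125b-5p. Of the 4 passenger arms only rno-let-7d* was detected, on 1 array, and it was not called in any compound. Of the 5 neighbours miR-99a was lower in 8 of 15 compounds, miR-125b-5p in 6, miR-100 in 1, and miR-125a-5p was higher in 1, while miR-99b had no call. miR-99a and miR-125b-5p were detected on 63 arrays, miR-100 on 62, miR-125a-5p on 46 and miR-99b on only 3. Mir99a starts at chr11:29687392 and lies 654 bases from the let-7c locus of chromosome 11, and Mir125b2 lies further down the same chromosome, 44439 bases from it. miR-125b-5p has another hairpin, Mir125b1, on chromosome 8, 44795 bases from the let-7a locus there. The array does not separate the products of these hairpins.

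On the arrays filed as DHEA miR-99a measured 8.64, 8.505 and 8.61 against 9.402, 9.218 and 9.292 in MC set 1 and fell by 0.72 (SE 0.0865, adjusted p = 8.55e-09), 1.65-fold. miR-125b-5p measured 8.437, 8.343 and 8.395 against 8.996, 8.786 and 8.958 and fell by 0.52 (SE 0.077, adjusted p = 1.06e-06). Both were lower on all 3 arrays than on any control array, like let-7c, and both remained called with slide as a fixed block (-0.91 and -0.70, adjusted p = 0.0135 and 0.0277). miR-100, encoded near let-7a on chromosome 8, fell by 0.07 there (adjusted p = 0.00989), a call lost without rat 2 of DHEA or rat 4 of MC set 1. Assigned as in the value table, as DES, miR-99a was -0.57 and miR-125b-5p -0.42, both called.

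In MPy, miR-99a measured 8.827, 8.895 and 8.487 and fell by 0.57 (adjusted p = 4.33e-06), and miR-125b-5p fell by 0.36 (adjusted p = 0.000533), while let-7c was 0.12 and not called. On the arrays filed as DES, miR-125b-5p fell by 0.37 (adjusted p = 0.000382) while let-7c rose by 0.24 and miR-99a was -0.08. miR-99a also fell in AA (by 0.39), CPA (0.33), Wy (0.33), CIDB (0.27), DMN (0.25) and TAA (0.23), and miR-125b-5p in AA (0.31), Wy (0.31) and PBO (0.25), in none of which let-7c was called. The 6 comparisons with MC set 1 share its 3 rats, and miR-99a in CIDB, DMN, CPA and TAA and miR-125b-5p in PBO lost the call when 1 rat was left out. With arrays assigned as in the value table, of the 16 calls 9 were kept and 7 lost: miR-99a was -0.24 in AA, -0.175 in Wy, -0.08 in TAA and -0.08 in DHEA, miR-125b-5p was -0.21 in AA and in Wy, and miR-100 was -0.03 in DHEA. miR-99a in MPy (-0.42) and miR-125b-5p in MPy (-0.26) and PBO (-0.24) remained called. miR-125a-5p, next to let-7e on chromosome 1, rose in CIDB by 0.08 (adjusted p = 0.000149), where let-7e was -0.02. It was not detected in rats 5 and 6 of CO set 3, so this change lies close to the detection limit.

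**Figure D4:**
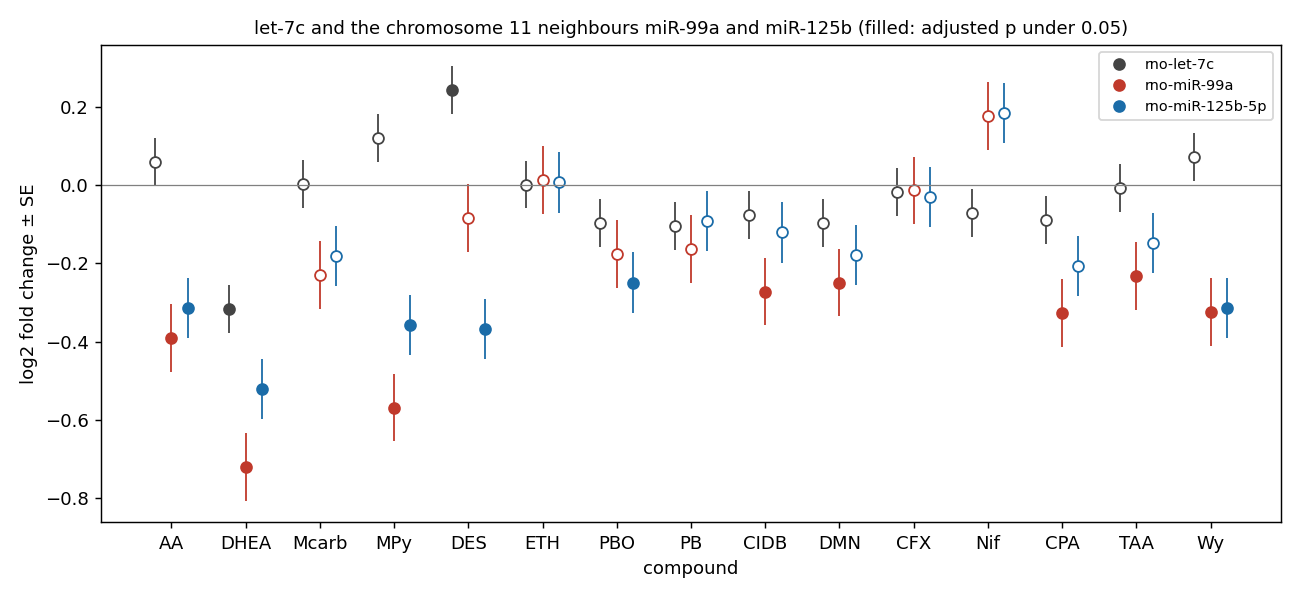
Log2 fold change (y axis, ± SE from limma, 3 rats against 3) of let-7c, miR-99a and miR-125b-5p in each compound (x axis), filled where the adjusted p was under 0.05. miR-99a and miR-125b-5p are lowest in DHEA (-0.72 and -0.52), while let-7c is below 0 and called there alone. miR-125b-5p also has a hairpin on chromosome 8.

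Outside the family and its neighbours, the miRNAs whose level over the 63 arrays was most like the mean of the 8 members, among 61 detected on all arrays, were miR-107 (r = 0.583), miR-352 (0.569), miR-103 (0.544), miR-151 (0.476) and miR-29a (0.466). Within the 30 arrays of the first scan day these were 0.625, 0.711, 0.678, 0.49 and 0.371, and within the 28 of the second 0.304, 0.063, 0.217, 0.268 and 0.226. The lowest were miR-22, miR-30c and miR-101b, each at -0.469. These are descriptions over arrays that share a normalization.

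The liver label was set beside fixed marker lists. The hepatocyte miRNAs, miR-122, miR-192 and miR-194, were detected on all 63 arrays. So were the leukocyte miR-223, the erythroid miR-451 and miR-143, so detection alone is no check of the label. The summed level of the hepatocyte miRNAs on the log2 scale was 14.33 (CIDB) to 14.82 (Wy) over all rats. No other list exceeded 11.31 (erythroid, in PBO). In bulk liver, a change in the share of a cell type and a change in the miRNA per cell cannot be told apart. Beside the fall of let-7e in DMN, 4 of the 5 tested leukocyte miRNAs were higher, miR-142-3p by 0.76, and their summed level on the log2 scale was 10.55 to 10.89 in DMN against 10.22 to 10.33 in CO set 3, without overlap. Of the 5 tested stellate, smooth muscle and endothelial miRNAs 4 were lower in DMN (sums of 10.76 to 10.78 against 10.91 to 11). Of the hepatocyte miRNAs miR-122 fell by 0.09 in DMN, while miR-192 (0.04) and miR-194 (-0.135) were not called. On the arrays filed as DES 2 leukocyte miRNAs were lower (sums of 10.13 to 10.23 against 10.33 to 10.36). There miR-192 was higher by 0.26, while miR-194 (-0.14) and miR-122 (-0.05) were below 0 and not called. On the arrays filed as DHEA miR-192 fell by 0.36, with miR-194 (-0.14) and miR-122 (-0.004) not called. In MPy miR-194 fell by 0.32, with miR-192 (-0.18) and miR-122 (-0.006) not called. In PBO miR-192 fell by 0.24, with miR-194 (-0.14) and miR-122 (0.002) not called. miR-143 fell by 0.19 in TAA and 0.22 in Wy. The other tested markers of its list were above 0 in TAA and below 0 in Wy, none called. No leukocyte marker was called in these 5 compounds. The erythroid pair, miR-451 and miR-144, was called nowhere, miR-145 was detected on no array and miR-155 was not analysed here. The part of cell composition in the let-7 changes was not tested.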

How the data were processed

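Liver miRNA was profiled in 63 rats on Agilent 1-colour arrays (9 slides, 3 scan days). Per the file headers, the deposited scanner files hold spot intensity values from Feature Extraction, with the software's background-subtracted signal, detection calls and outlier flags (unit other). The authors' value table holds log2 values from RMA without background correction, as their methods state, with 135 miRNAs. The deposited log2 table was used as an alternative, and to check which array each column follows.

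From the intensity files, control spots and flagged spots (2.87%) were dropped, and the mean signal was quantile normalized without background correction. Spots were averaged per probe, and median polish of log2 values joined the probes of each miRNA, 2 for each member. A miRNA detected on at least 1 array was tested (162 of 350). No spot was saturated, and 81 to 151 miRNAs were detected per array. limma 3.58.1 in R 4.3.3 was fitted over all 63 arrays in 21 groups, contrasts were compound minus labelled control set, p-values were adjusted by Benjamini-Hochberg over the 162 miRNAs, and a call was an adjusted p under 0.05. The script was tested on simulated data. Precision is limited by the number of arrays, 3 for each group, and an exact permutation test of 3 against 3 could not pass the threshold.

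The members and lists were chosen with earlier results of these data known. All 8 members are named, with each called pair of a member and a compound. Alternatives were the value table, other scalings, normexp background correction, the brightest probe, other detection filters, slide or scan day as a block, pooled controls, the value table's array assignment, only the groups compared, a replicate block, and leaving out each rat. Within-day values and the 12 compounds with same-day controls were chosen after seeing the data.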

Additional observations from a re-analysis of the deposited data

How the results depend on the processing

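Of the 18 higher and 4 lower calls, the count of higher calls was 10 in the authors' value table, 30 with scaling over detected probes, 1 with scaling over all probes, 1 with slide as a fixed block, 11 within scan day, 8 in the 12 compounds with same-day controls, and 0 in CIDB, DMN, PB and CPA alone. Lower calls were 1 over detected probes, 0 with slide as a fixed block, 8 with scan day as a block, 7 against all control rats of the vehicle, 2 with only the groups compared, and 1 in CIDB, DMN, PB and CPA. With the value table's assignment and slide as a fixed block, both counts were 0. Normexp correction and the stricter detection filter left both counts at 18 and 4. The 8 members that varied over compounds in the F test became 5 over all probes, 5 with slide as a fixed block and 4 with that assignment and slide. The 1 call between control sets became 0 over all probes, with slide as a fixed or random block (consensus correlation 0.186), with scan day, and with the assignment and slide. No call between classes appeared in any setting. Leaving out 1 rat gave 16 to 19 higher and 3 to 4 lower calls, 7 to 8 members varying, and 0 (without rat 5 of MC set 1) to 1 call between control sets.

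Directions turned in these cases. In the authors' value table, let-7b and let-7c were 0.305 and 0.235 in DHEA and -0.424 and -0.456 in DES, and let-7i in DES was -0.0391. With the scanner arrays assigned as the table's columns run, let-7b and let-7c were 0.275 and 0.242 in DHEA and -0.289 and -0.346 in DES. With slide as a fixed block, let-7b was 0.0541 in DHEA and -0.0853 in DES, and let-7i in Wy -0.0569. With both, let-7c was 0.0941 in DHEA and -0.105 in DES, and let-7i -0.0283 in DES and -0.0507 in Wy. With scan day as a block let-7i in Wy was -0.0148. Over all probes, let-7a and let-7f in MPy were -0.27 and -0.128, let-7f in TAA -0.114, and let-7b and let-7f in Wy -0.123 and -0.235. The cause was not tested.

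In PB and CPA, where rats and controls carry the same numbers, a replicate block left 18 higher and 4 lower calls. The deviations of rats with the same number correlated at -0.258 to 0.045, so the numbers were not taken as pairs. The calls rest on 3 rats a group, dim members (let-7e and miR-98) are limited by their signal over background, and DES, TAA and Wy have no control scanned on the same day.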
